A study of Mus musculus with 8 samples.

Results

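Glycolysis turns glucose into pyruvate in the cytosol, and most of its steps can be run by more than 1 isoenzyme, each from a gene of its own. The 10 genes described here are the hexokinases Hk1 and Hk2, the phosphofructokinase subunits Pfkl, Pfkm and Pfkp, the regulatory enzyme Pfkfb3, aldolase A (Aldoa), the M-type pyruvate kinase (Pkm), the lactate dehydrogenase subunit Ldha and the lactate exporter Slc16a3. They were taken by symbol from the 17634 genes of the deposited table. All 10 were found and all 10 passed the filter on low counts, which left 12908 genes for testing. The RNA was that of crypts of the small intestine, taken from C57BL/6N mice on day 3 after irradiation. Of the 8 libraries, 4 are wild type and 4 are miR-29ab1-/-, a deletion of the shared locus of miR-29a and miR-29b-1. All 8 libraries are from irradiated mice and no unirradiated library enters a comparison. The sources used here give neither the dose nor the age of the mice, and the deleted microRNAs themselves were not analysed, so the genotype labels were not checked against them.

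In the gut, dividing crypt cells and absorptive enterocytes differ in the isoenzymes they use. The L-type pyruvate kinase (Pklr) is the form of liver, kidney and enterocytes, while Pkm is the form of most other cells, and Aldoa is the widely expressed aldolase of glycolysis. Lactate leaves cells through monocarboxylate transporters, of which Slc16a3 (MCT4) is known for export from highly glycolytic cells and Slc16a1 (MCT1) carries lactate and short-chain fatty acids in either direction. Paneth cells of the crypt base are known as a glycolytic cell type that supplies lactate to the stem cells beside them.

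Libraries held 9481191 to 16231089 counts. The summed level of 15 enterocyte markers was 2784 to 13111 CPM (counts scaled to a common library size with TMM factors) in wild type and 30986 to 102894 in the knockout, and all 15 rose. All 15 cell division markers fell, with summed levels of 2691 to 3186 and 937 to 1548 CPM. Fibroblast markers summed to 257 CPM in wild-type replicate 3 and to 333 and 319.8 in knockout replicates 3 and 4, against 39.7 to 78.3 in the other 5 libraries. Immune markers summed to 287 CPM in wild-type replicate 4 and to 1128 to 3081 in the other 7. The 4 Y-linked genes summed to under 1 CPM in replicate 4 of both genotypes and to 114 to 142 in replicates 1 to 3. Each genotype thus mixes libraries with and without Y-linked transcripts, a difference that the main fit, on genotype alone, did not include. In such bulk samples, fewer cells of a type and less RNA per cell cannot be told apart. The markers of the labelled tissue were present: 9 Paneth cell markers summed to 10933 to 15526 CPM in wild type and 12253 to 38559.6 in the knockout, with 2 of 9 called higher, and 7 of 10 stem cell markers fell. Of the lists for other cells, 7 of 8 goblet cell, 7 of 7 tested tuft cell, 5 of 9 enteroendocrine and 1 of 8 tested fibroblast markers rose, and 0 of 10 tested immune markers were called by edgeR (0 at an unadjusted p below 0.05 and 0 by DESeq2). Of all tested genes, 24.2 percent were called higher and 23.1 percent lower, and the shares of Paneth cell and fibroblast markers called higher were not above that. The part of these marker shifts in the results below was not tested. In replicates 1 to 3 alone, the directions and calls of all 10 genes were those of the full set.

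**Figure D1:**
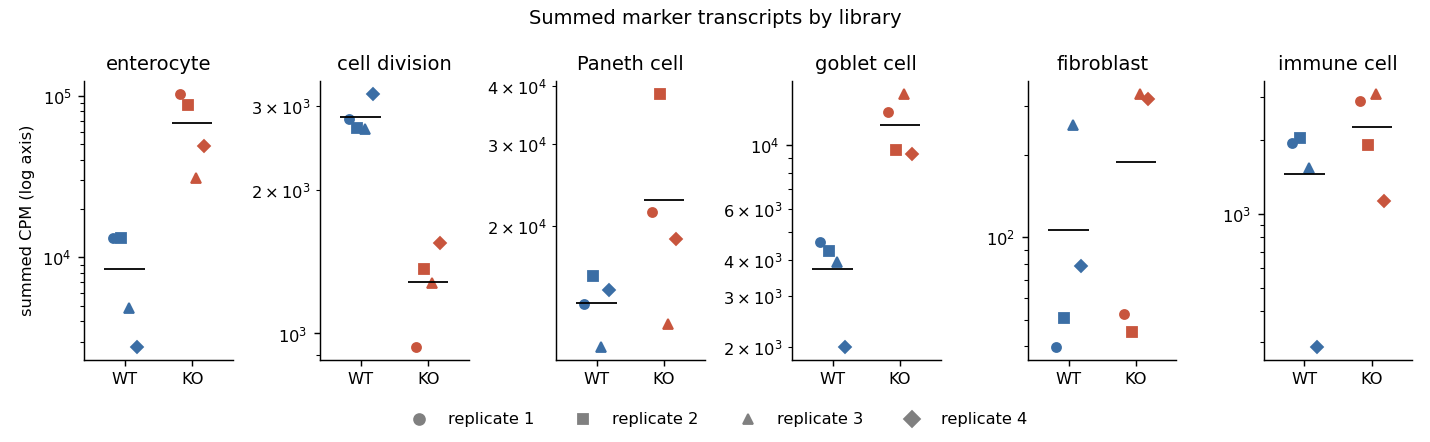
Summed CPM of marker genes (log axis) for 6 cell types or states in each of the 8 libraries, with replicate number as the symbol and the group mean as a line. Enterocyte and goblet cell sums do not overlap between the genotypes and are higher in the knockout, cell division sums are lower, and fibroblast and immune sums overlap.

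The deleted microRNAs share a seed, the bases 2 to 8 that pair with a target transcript. Their mature sequences are shown with the seed in capitals, from RefSeq on GRCm38.p6 (chr6:31062673-31062694 and chr6:31063025-31063047, both on the minus strand).
miR-29a-3p: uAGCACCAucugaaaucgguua
miR-29b-3p: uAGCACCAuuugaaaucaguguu
The complement of that seed, TGGTGCT, was searched on the sense strand of each gene's longest annotated 3′ UTR (GENCODE M21, build GRCm38). It was in none of the 10 UTRs of the members, which had a median length of 1158 bases, and in 1955 of the 12640 tested genes with an annotated 3′ UTR (15.5 percent, median length 1150 bases). No match says only that these letters are not in these UTRs. Among 25 other genes of glycolysis and lactate transport, 4 had 1 match each: Slc16a1, Hkdc1, Pfkfb2 and Slc2a3. The sites of Slc16a1 and Hkdc1 are shown, with the match in capitals, because both genes are partners of members in the ratios below and moved in opposite directions.
Slc16a1 site: tgctggcctctagtctaccagTGGTGCTc
Hkdc1 site: ctctccgtactctaagcatccTGGTGCTt
The first lies at chr3:104655796-104655802 on the plus strand and the second at chr10:62383690-62383696 on the minus strand, both in 3′ UTRs. Slc16a1 is known as a target of miR-29 in pancreatic beta cells.

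Between the genotypes, 5 of the 10 genes differed in the quasi-likelihood test of edgeR with Benjamini-Hochberg adjustment over all 12908 genes (adjusted p below 0.05). Pfkfb3, Pfkp and Slc16a3 were higher in the knockout, and Pfkl and Aldoa were lower. Of all tested genes, 47.3 percent were called, 24.2 percent as higher and 23.1 percent as lower, so a share of 5 in 10 is close to that of the table as a whole. The median log2 fold change (knockout over wild type) of the 10 genes was −0.10, against 0.034 over all tested genes, with a range from −0.85 to 2.21. CPM values of the genotypes did not overlap in 5 of the 10, the same 5 genes, and in 45.4 percent of all tested genes. The plot of the 10 genes by library shows the single values.

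**Figure D2:**
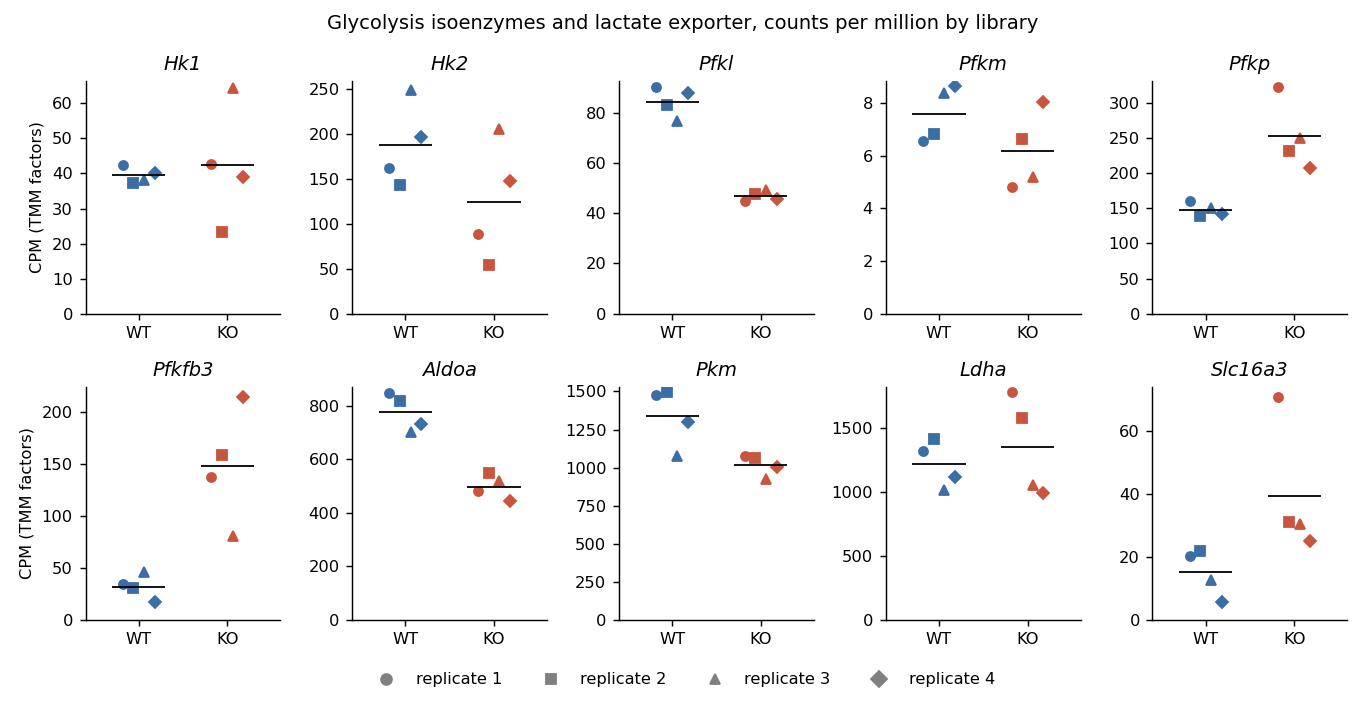
CPM (with TMM factors) of the 10 genes in each library, with replicate number as the symbol and the group mean as a line. Pfkl and Aldoa are lower and Pfkp, Pfkfb3 and Slc16a3 higher in every knockout library than in every wild-type library, and the other 5 genes overlap.

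Hexokinases phosphorylate glucose on entry and hold it in the cell. Hk1, the housekeeping form, was not called. It was at 42.5, 37.4, 38.1 and 40.2 CPM in wild-type replicates 1 to 4 and 42.6, 23.2, 64.3 and 39.0 CPM in knockout replicates 1 to 4. Its log2 fold change was 0.10 ± 0.25 (SE, edgeR adjusted p = 0.778). Knockout libraries spread over a 2.77-fold range around the wild-type values, whose range was 1.14-fold, and the highest, replicate 3, was also the highest of the 8 in fibroblast markers. Without that library the log2 fold change was −0.18, and with scaling by total counts it was −0.13 (adjusted p 0.275 to 0.982 over 15 alternative settings).

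Hk2, the inducible form of dividing and glycolytic cells, was at 162, 143, 249 and 197 CPM in wild-type replicates 1 to 4 and 88.2, 54.4, 205 and 147 CPM in knockout replicates 1 to 4. The groups overlapped, since knockout replicates 3 and 4 (205 and 147 CPM) lay above wild-type replicate 2 (143 CPM). Replicate 3 was the highest library of each genotype (249 and 205 CPM). The difference was not called (log2 fold change −0.60 ± 0.37, edgeR adjusted p = 0.207). Within each replicate number the knockout was lower, in 4 of 4 pairs. With the replicate number as a block Hk2 was called lower (−0.74 ± 0.19, edgeR adjusted p = 0.0145), as it was without knockout replicate 3 (edgeR adjusted p = 0.0387; 0.0145 to 0.400 over 15 settings). Fibroblast markers were highest in the same replicate 3 of each genotype, and their part in the Hk2 level was not tested.

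Within the hexokinase step the balance moved away from Hk2. Per length, as FPKM (fragments per kilobase of transcript, scaled to library size), Hk2 made 67.4 ± 5.57 percent (SD, n = 4) of the summed level of Hk1, Hk2, Hk3 and Hkdc1 in wild type and 29.2 ± 14.8 percent in the knockout. Hk1 made 21.0 ± 3.69 and 14.2 ± 4.76 percent, with overlap. The rest was Hkdc1, a hexokinase-related enzyme of epithelia, at 10.8 ± 3.52 percent in wild type and 56.4 ± 19.4 percent in the knockout, while Hk3 reached at most 1.34 percent in a library. Hk3 was not called (edgeR adjusted p = 0.195), but was called lower with the replicate block (−1.44 ± 0.51, edgeR adjusted p = 0.0477). Hkdc1 itself was 7.99-fold higher (18.1 ± 5.70 and 144 ± 49.0 CPM, SD, n = 4; edgeR adjusted p = 0.00108). Its share was 68.4 and 75.6 percent in knockout replicates 1 and 2, and 32.8 and 48.7 percent in replicates 3 and 4. Enterocyte markers summed to 102894 and 87079 CPM in the first pair and to 30986 and 49128 in the second, and their part in the share was not tested.

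Isoenzyme balance was compared as the log2 ratio of the counts of 2 genes within each library, which does not depend on how libraries are scaled to each other. Over 9 ratios at 6 steps, 6 differed between genotypes with no overlap, each at p = 0.0286, the smallest that a two-sided exact permutation test of 4 against 4 can give, and 0.0429 after Benjamini-Hochberg adjustment over the 9. Hk2 to Hk1 was lower in the knockout by 0.75 on the log2 scale (2.22 ± 0.37 to 1.47 ± 0.40, SD, n = 4, exact permutation test), with the closest libraries at 1.93 and 1.92. Hkdc1 to Hk2 was higher by 3.74. Per length, Hkdc1 stood at 0.0825 to 0.232 times Hk2 in wild type and at 0.713 to 5.04 times in the knockout.

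**Figure D3:**
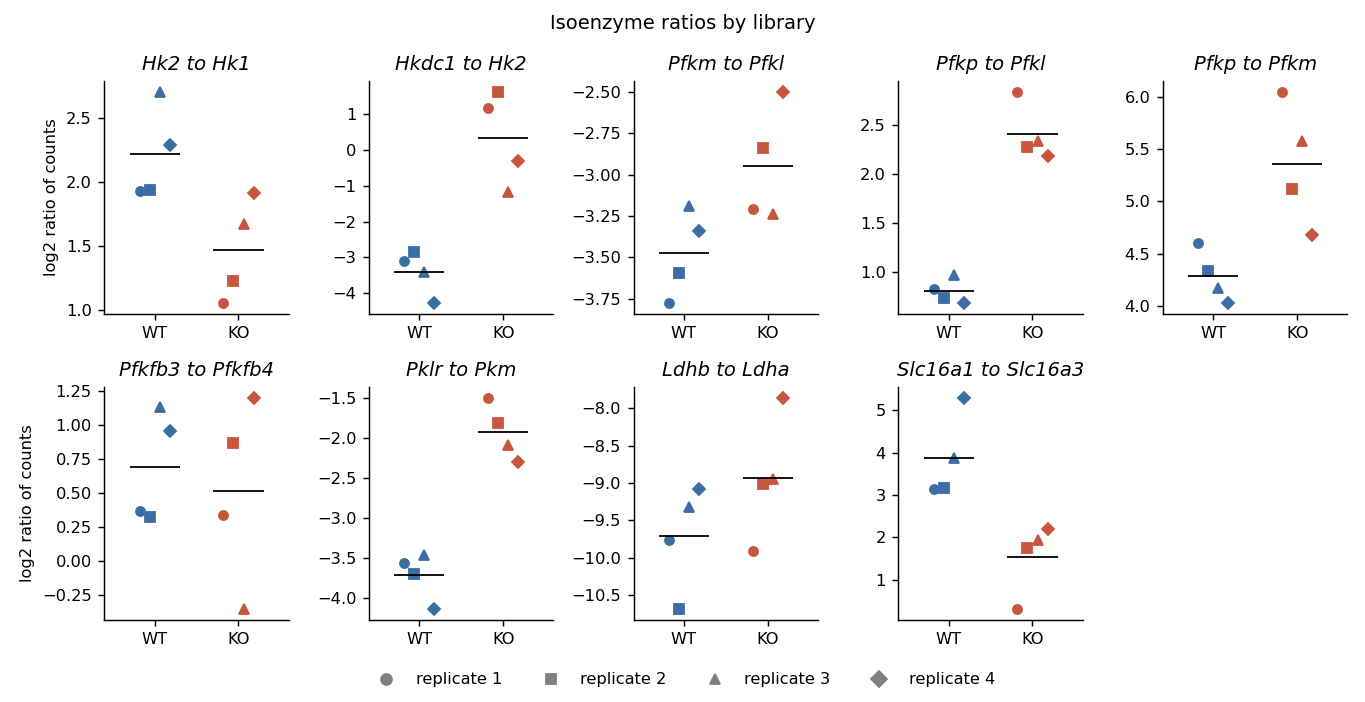
Log2 ratio of the counts of 2 isoenzymes in each library for the 9 ratios, with replicate number as the symbol and the group mean as a line. The groups do not overlap in 6 ratios, and overlap for Pfkm to Pfkl, Pfkfb3 to Pfkfb4 and Ldhb to Ldha.

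Phosphofructokinase commits sugar to glycolysis, and its tetramers are built from liver-type (Pfkl), muscle-type (Pfkm) and platelet-type (Pfkp) subunits. The 2 abundant subunits moved in opposite directions. Pfkl was at 90.3, 82.9, 76.6 and 87.8 CPM in wild-type replicates 1 to 4 and 44.8, 47.6, 49.3 and 45.7 CPM in knockout replicates 1 to 4. It fell 1.80-fold, from 84.4 ± 6.03 to 46.8 ± 2.01 CPM (SD, n = 4; log2 fold change −0.85 ± 0.092, SE, edgeR adjusted p = 0.00108), and the knockout libraries lay within a 1.10-fold range, the narrowest of the 10 genes.

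Pfkp was at 159.8, 138, 151 and 141 CPM in wild-type replicates 1 to 4 and 322, 231, 250.2 and 208 CPM in knockout replicates 1 to 4. It rose 1.71-fold, from 148 ± 9.76 to 253 ± 49.2 CPM (log2 fold change 0.78 ± 0.15, edgeR adjusted p = 0.00315), with knockout replicate 1 the highest. Pfkm was rare, at 52 to 157 counts per library, and was not called. It was at 6.55, 6.82, 8.37 and 8.64 CPM in wild-type replicates 1 to 4 and 4.81, 6.63, 5.19 and 8.05 CPM in knockout replicates 1 to 4 (log2 fold change −0.30 ± 0.22, edgeR adjusted p = 0.279). Both Pfkl and Pfkp kept their direction and their call in all 15 alternative settings. The deposited counts of Pfkp were not whole in 5 of the 8 libraries, and how such reads were assigned is not known.

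Per length, Pfkp was already the most abundant subunit in wild type, with 62.2 ± 1.81 percent of the summed FPKM of the step, and it reached 82.6 ± 3.36 percent in the knockout. Pfkl went from 34.2 ± 1.84 to 15.0 ± 2.60 percent and Pfkm from 3.62 ± 0.591 to 2.37 ± 0.896 percent (SD, n = 4). Shares of Pfkl and of Pfkp did not overlap between the genotypes. The log2 ratio of Pfkp to Pfkl was 0.81 ± 0.13 in wild type and 2.41 ± 0.29 in the knockout, a 3.05-fold change in the ratio (exact permutation p = 0.0286, adjusted 0.0429). Pfkp to Pfkm was higher by 1.08, and Pfkm to Pfkl, at 0.53, was not past the threshold (exact permutation p = 0.0857, adjusted 0.110). Summed over the 3 subunits, the level was 76.2 ± 4.54 FPKM divided by TMM factor in wild type and 98.0 ± 16.8 in the knockout, which did not overlap but did so without the TMM factors.

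**Figure D4:**
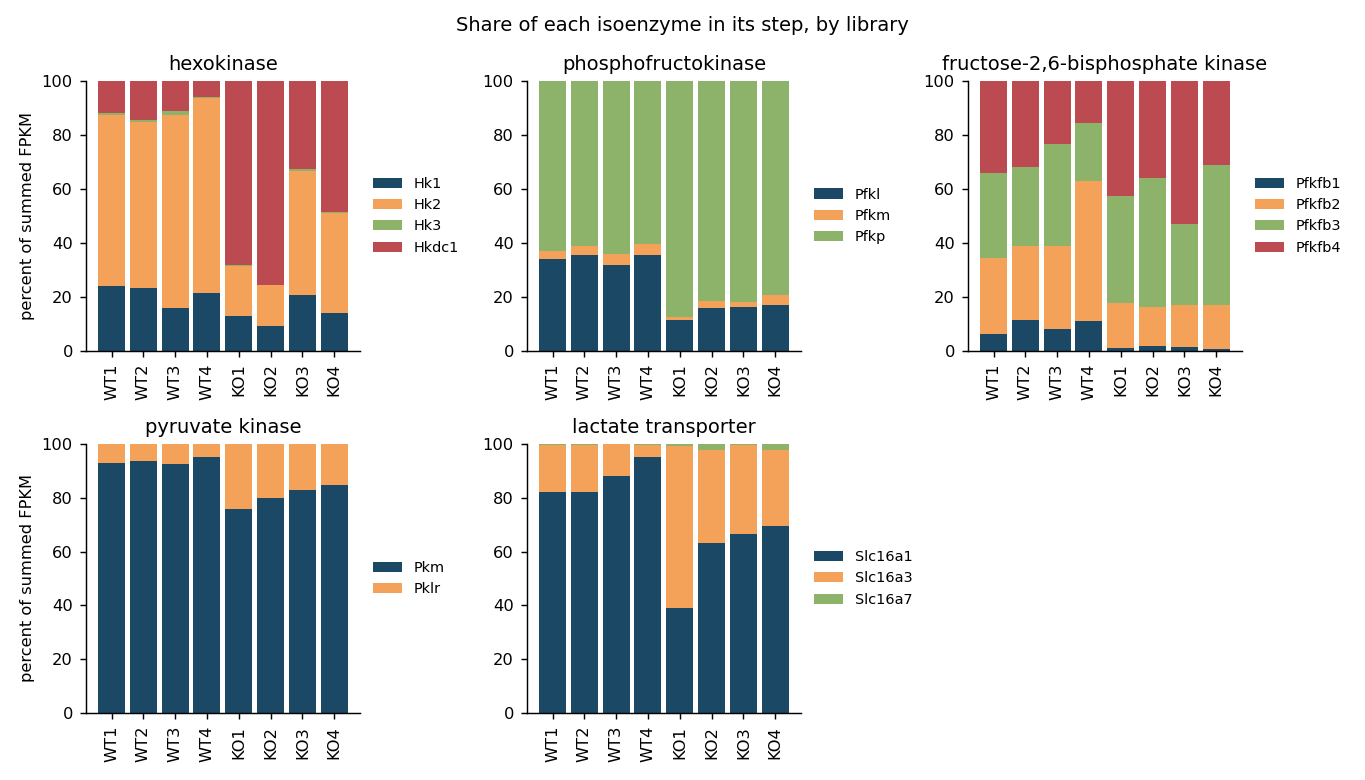
Percent of the summed FPKM of a step that each isoenzyme makes, for 5 steps in each of the 8 libraries. Pfkp makes a larger and Pfkl a smaller share in each knockout library than in each wild-type library, and Hk2, Pkm and Slc16a1 make a smaller share in each knockout library than in each wild-type library.

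Promoter windows of 250 bases before and 50 after an annotated start (RefSeq, GRCm38.p6) were searched on both strands for ACGTG. This is 1 form of the core to which hypoxia-inducible factors bind, a known regulator of glycolytic genes. The form GCGTG was not searched, and the core below means ACGTG alone. The 10 genes have 19 such windows, 11 of them with the core (57.9 percent), against 24.8 percent of the 12965 windows of tested genes. Of these 11, a pair of overlapping Aldoa windows hold 1 and the same site. By gene, 8 of the 10 had the core in at least 1 window, against 28.8 percent of 10167 tested genes with a window, but the 10 genes have 1.9 windows each on average and the tested genes 1.28. The core is also part of CACGTG, the E-box, which 3 of the 19 windows hold (9.65 percent of the windows of tested genes). It occurred in windows of genes that rose (Pfkfb3, Slc16a3), of one that fell (Aldoa) and of the 5 that were not called. The windows of Pfkl and Pfkp, the subunits that moved in opposite directions, lack ACGTG and are shown with 1 window each of Pfkfb3 and Slc16a3. Both the Pfkl and the Pfkp window hold GCGTG, which enters no count here. The core is in capitals.
Pfkl (chr10:78009758-78010057, minus strand): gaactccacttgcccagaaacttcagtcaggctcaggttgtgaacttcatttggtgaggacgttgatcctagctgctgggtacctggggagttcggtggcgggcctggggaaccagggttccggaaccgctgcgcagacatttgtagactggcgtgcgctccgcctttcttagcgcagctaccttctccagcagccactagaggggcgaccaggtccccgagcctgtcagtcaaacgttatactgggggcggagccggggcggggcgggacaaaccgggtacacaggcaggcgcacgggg
Pfkp (chr13:6648722-6649021, minus strand): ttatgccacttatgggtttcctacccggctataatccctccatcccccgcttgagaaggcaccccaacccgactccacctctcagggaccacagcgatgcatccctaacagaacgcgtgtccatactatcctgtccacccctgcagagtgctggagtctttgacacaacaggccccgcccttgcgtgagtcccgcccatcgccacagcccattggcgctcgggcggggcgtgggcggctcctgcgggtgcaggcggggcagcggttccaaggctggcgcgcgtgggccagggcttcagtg
Pfkfb3 (chr2:11553880-11554179, minus strand): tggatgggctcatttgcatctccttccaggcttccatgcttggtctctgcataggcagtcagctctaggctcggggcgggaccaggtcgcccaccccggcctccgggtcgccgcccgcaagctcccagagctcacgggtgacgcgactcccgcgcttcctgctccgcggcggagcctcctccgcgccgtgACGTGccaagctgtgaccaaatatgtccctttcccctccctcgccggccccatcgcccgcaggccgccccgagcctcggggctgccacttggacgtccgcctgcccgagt
Slc16a3 (chr11:120948817-120949116, plus strand): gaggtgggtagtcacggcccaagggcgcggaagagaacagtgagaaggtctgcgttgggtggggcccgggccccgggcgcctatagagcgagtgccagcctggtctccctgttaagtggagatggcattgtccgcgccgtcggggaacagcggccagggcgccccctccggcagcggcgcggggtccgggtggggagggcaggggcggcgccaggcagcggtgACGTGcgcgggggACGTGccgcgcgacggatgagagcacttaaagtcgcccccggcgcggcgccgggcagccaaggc
The core starts 60 bases before the start of Pfkfb3 and 27 and 14 bases before that of Slc16a3. A match is a description of the letters and not a bound site.

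Pfkfb3 makes the signal sugar phosphate that activates phosphofructokinase, and had the largest change of the 10 genes. It was at 34.8, 30.5, 46.0 and 16.8 CPM in wild-type replicates 1 to 4 and 137, 158, 80.9 and 214 CPM in knockout replicates 1 to 4. Every knockout library was above every wild-type library, and the gene rose 4.61-fold, from 32.0 ± 12.1 to 148 ± 55.1 CPM (SD, n = 4; log2 fold change 2.21 ± 0.35, SE, edgeR adjusted p = 0.00165). The genotypes came closest in replicate 3 (46.0 and 80.9 CPM) and lay farthest apart in replicate 4 (16.8 and 214 CPM). The call held in all 15 alternative settings (adjusted p 1.3e-08 to 0.00686, DESeq2 included).

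Its 3 relatives were called as well. Pfkfb4 rose 4.86-fold (20.2 ± 8.10 and 97.9 ± 9.72 CPM in wild type and knockout, SD, n = 4), and Pfkfb2 rose 1.56-fold (50.1 ± 8.81 and 78.1 ± 15.0 CPM). The Pfkfb2 call was lost without knockout replicate 1 or 4, in replicates 1 to 3 alone, and when libraries were scaled by totals (adjusted p by edgeR of 0.0684, 0.0687, 0.0548 and 0.172; 0.00576 to 0.172 over 15 settings). Pfkfb1, the rarest, fell 2.53-fold to 1.41 ± 0.486 CPM. Summed per length, the 4 genes went from 23.4 ± 4.28 to 77.2 ± 13.3 FPKM divided by TMM factor, 3.30-fold, without overlap. Pfkfb3 made 30.0 ± 6.71 percent of that sum in wild type and 42.6 ± 9.68 percent in the knockout, and the log2 ratio of Pfkfb3 to Pfkfb4 differed by −0.18 with overlapping groups (exact permutation p = 0.657, adjusted 0.657). Tigar, which degrades the same activator, fell 1.41-fold, a call lost in replicates 1 to 3 alone and without wild-type replicate 4 (edgeR adjusted p = 0.0720 and 0.0541; 0.0105 to 0.0720 over 15 settings).

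Aldolases split the doubly phosphorylated hexose into 2 trioses. Aldoa fell 1.56-fold, and was at 849, 818, 701 and 733 CPM in wild-type replicates 1 to 4 and 481, 548, 519 and 443 CPM in knockout replicates 1 to 4. Every knockout library was below every wild-type library (775 ± 69.5 to 498 ± 45.8 CPM, SD, n = 4; log2 fold change −0.64 ± 0.13, SE, edgeR adjusted p = 0.00409). The call of Aldoa held in all 15 alternative settings.

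Aldoc, the brain form, rose 2.46-fold at a low level (1.48 ± 0.588 and 3.68 ± 0.815 CPM, SD, n = 4), and lost its call in replicates 1 to 3 alone (edgeR adjusted p = 0.0786; 0.00245 to 0.0786 over the 14 settings in which it was tested).

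Pyruvate kinase makes pyruvate in the last step. Pkm, counted over both its splice forms, was at 1477, 1499, 1073 and 1299 CPM in wild-type replicates 1 to 4 and 1078, 1063, 923 and 1005 CPM in knockout replicates 1 to 4. It was lower in the knockout in 4 of 4 pairs, but wild-type replicate 3 (1073 CPM) lay below 1 knockout library, and the difference was just short of the threshold (log2 fold change −0.39 ± 0.15, SE, edgeR adjusted p = 0.0554). With the replicate block Pkm fell (−0.38 ± 0.12, edgeR adjusted p = 0.0298). It was also called by DESeq2 (adjusted p = 0.0257), with upper-quartile factors and with total-count scaling (0.0137 and 0.00257). Leaving out knockout replicate 2 or wild-type replicate 3 gave the call as well (edgeR adjusted p = 0.0355 and 0.0290; 0.00257 to 0.149 over 15 settings).

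Pklr, the L-type enzyme, rose 2.69-fold (103 ± 22.6 and 277 ± 83.2 CPM; SD, n = 4; edgeR adjusted p = 0.00195). Pkm remained the main form, with 93.6 ± 1.16 percent of the summed FPKM in wild type and 80.8 ± 3.86 percent in the knockout. The log2 ratio of Pklr to Pkm was higher by 1.79 (−3.72 ± 0.30 to −1.92 ± 0.35, exact permutation p = 0.0286, adjusted 0.0429). The summed level of the step, 629 ± 96.1 and 559 ± 60.4 FPKM divided by TMM factor, overlapped between the genotypes, and was lower in every knockout library without the TMM factors.

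Ldha, whose enzyme converts pyruvate to lactate and renews the cofactor that glycolysis needs, was the most abundant of the 10 genes per length, at 883 ± 87.0 FPKM in wild type and 799 ± 135 in the knockout (SD, n = 4, without TMM factors). On the CPM scale, with TMM factors, it was at 1316, 1408, 1011 and 1115 CPM in wild-type replicates 1 to 4 and 1776, 1572, 1055 and 986 CPM in knockout replicates 1 to 4. The groups overlapped and no difference was called (log2 fold change 0.15 ± 0.22, SE, edgeR adjusted p = 0.597). The sign turned to −0.14 with total-count scaling and to −0.040 without knockout replicate 1 (adjusted p 0.393 to 0.956 over 15 settings). In both genotypes replicates 1 and 2 were above replicates 3 and 4, and the same libraries were the higher ones of their genotype in enterocyte markers. Inside replicates 1 and 2 the order of Ldha was that of the enterocyte sums in both genotypes. Inside replicates 3 and 4 it was the reverse in both, with enterocyte sums of 4878 and 2784 CPM in wild type and 30986 and 49128 in the knockout. This is a description of 8 libraries, and the part of the enterocyte sums in the Ldha level was not tested.

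Nearly all of the lactate dehydrogenase transcript was Ldha, at 99.5 to 99.9 percent of the summed FPKM of Ldha and Ldhb in each library. Ldhb, the heart-type subunit, was at 1.47 ± 0.506 and 2.78 ± 1.08 CPM (SD, n = 4; edgeR adjusted p = 0.0780), and the log2 ratio of Ldhb to Ldha, higher by 0.78, was not past the threshold (exact permutation p = 0.229, adjusted 0.257).

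Slc16a3, the lactate exporter, was at 20.4, 22.0, 12.6 and 5.67 CPM in wild-type replicates 1 to 4 and 70.7, 31.0, 30.6 and 25.2 CPM in knockout replicates 1 to 4. It rose 2.62-fold, from 15.1 ± 7.54 to 39.4 ± 21.1 CPM (SD, n = 4; log2 fold change 1.39 ± 0.45, SE, edgeR adjusted p = 0.0316), with no overlap and higher values in 4 of 4 pairs. Knockout replicate 1 stood apart at 70.7 CPM, and wild-type replicate 4 was the lowest at 5.67. Without knockout replicate 1 the log2 fold change was 0.91 and the call was lost (edgeR adjusted p = 0.106). It was also lost without wild-type replicate 3 and when libraries were scaled by totals (adjusted p by edgeR of 0.0781 and 0.0505; 0.00351 to 0.106 over 15 settings). Immune markers summed to 287 CPM in wild-type replicate 4, the lowest of the 8, and to 2882 in knockout replicate 1, below replicate 3. Enterocyte markers were lowest and highest in these same libraries, and the part of either list in the Slc16a3 level was not tested.

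The other transporter of lactate went the opposite way. Slc16a1, whose 3′ UTR site is printed above, fell 1.86-fold (196 ± 19.5 and 106 ± 13.7 CPM, SD, n = 4; edgeR adjusted p = 0.00130). The part of that site in the change was not tested. The share of Slc16a3 in the summed FPKM of the 3 monocarboxylate transporters measured was 12.6 ± 6.11 percent in wild type and 39.1 ± 14.3 percent in the knockout. Slc16a1 stood at 4.77 to 21.8 times Slc16a3 per length in wild type and at 0.649 to 2.44 times in the knockout, and the log2 ratio differed by −2.33 (exact permutation p = 0.0286, adjusted 0.0429). Per length, Slc16a3 was the more abundant of the pair in knockout replicate 1 alone. In CPM it was below Slc16a1 in that library too (70.7 and 87.3). The third transporter, Slc16a7, rose 2.68-fold but reached only 3.09 ± 1.28 CPM, and its call was lost in replicates 1 to 3 alone (edgeR adjusted p = 0.0727; 0.00205 to 0.0727 over the 14 settings in which it was tested). Bsg, the chaperone that brings these transporters to the membrane, was at 519 ± 49.0 and 670.3 ± 176 CPM and was not called (edgeR adjusted p = 0.148).

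Of 25 other genes of glycolysis and lactate handling, 23 were tested, and 7 rose and 6 fell (56.5 percent called, against 47.3 percent of all tested genes), with a median log2 fold change of 0.075. Those that rose were Hkdc1, Pfkfb2, Pfkfb4, Aldoc, Bpgm, Pklr and Slc16a7, and all but Bpgm, which makes the allosteric effector of haemoglobin from a glycolytic intermediate, are isoenzymes or relatives of the 10 genes. Those that fell were the glucose transporter Slc2a1 (1.57-fold, from 68.4 ± 4.45 to 43.6 ± 9.86 CPM), Pgam1, the phosphoglycerate mutase (1.61-fold), Pfkfb1, Tigar, Slc16a1 and Ldhd, a mitochondrial dehydrogenase of D-lactate (1.98-fold). Gpi1, Tpi1, Gapdh, Pgk1 and Eno1, enzymes of the steps between, had log2 fold changes of 0.058, 0.075, −0.30, 0.072 and −0.20 and were not called (edgeR adjusted p = 0.729, 0.730, 0.205, 0.773 and 0.358). In FPKM, without TMM factors, Gpi1, Tpi1, Gapdh and Eno1 were lower in every knockout library than in every wild-type library, and Pgk1 overlapped. With total-count scaling 6 of the 23 genes were called higher and 8 lower. The plot in pathway order shows the log2 fold changes with TMM factors.

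**Figure D5:**
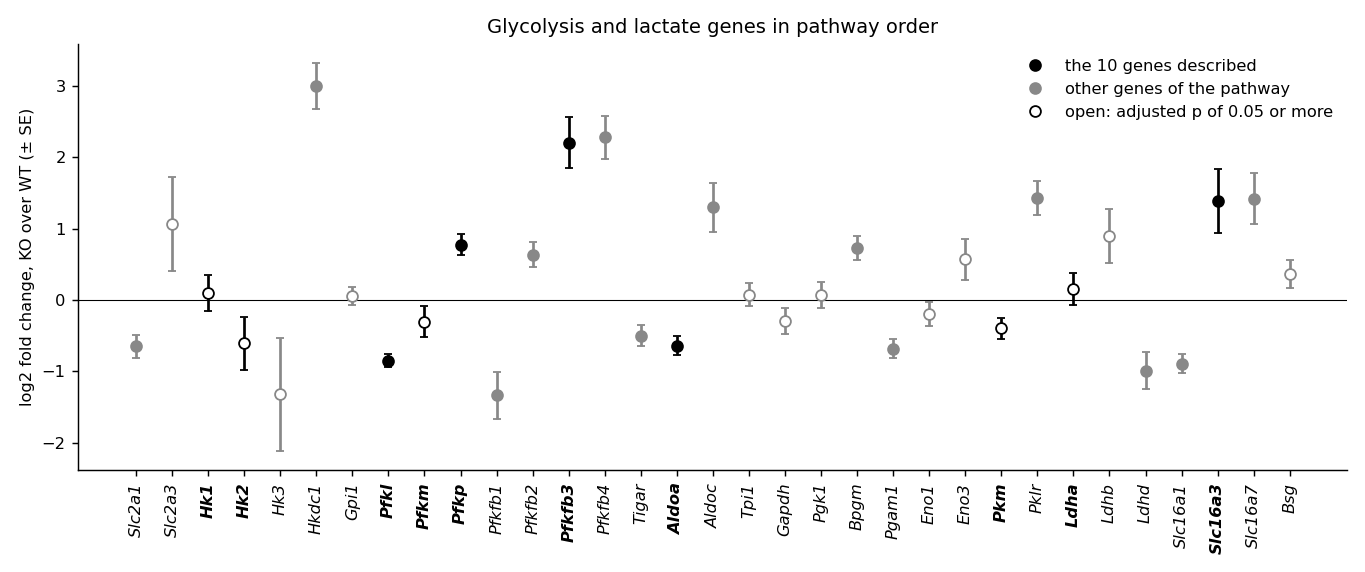
Log2 fold change (knockout over wild type, ± SE) of each tested gene in pathway order, with the 10 genes described in black and bold and the other genes in grey; open symbols are genes at an adjusted p of 0.05 or more. Pfkl and Pfkp lie on opposite sides of 0, as do Slc16a1 and Slc16a3.

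Enzymes that run the path in reverse were mostly higher. Of 8 gluconeogenesis genes, 6 rose and G6pc3, the widely expressed glucose-6-phosphatase, fell 1.31-fold. That is 87.5 percent called, against 47.3 percent of all tested genes, of which 24.2 percent were called higher. The median log2 fold change of the 8 was 1.37, against 0.034 over all tested genes. The G6pc3 call was lost in replicates 1 to 3 alone (edgeR adjusted p = 0.0590; 0.00369 to 0.0590 over 15 settings). Pck1, the cytosolic enzyme that makes phosphoenolpyruvate, rose 52.2-fold (12.4 ± 12.3 and 641 ± 424 CPM, SD, n = 4), with knockout replicate 3 at 47.6 CPM and the other 3 at 663 to 1034. G6pc, the phosphatase that frees glucose, rose 22.9-fold (1.99 ± 1.60 and 43.3 ± 34.2 CPM, SD, n = 4; log2 fold change 4.52), with knockout replicate 4 at 92.8 CPM and the other 3 at 14.4 to 35.4. Without that library its log2 fold change was 3.79, and in replicates 1 to 3 alone 3.39, with the call kept in both. Pcx, the carboxylase of pyruvate, rose 3.94-fold. Both fructose bisphosphatases, which undo the phosphofructokinase step, rose: Fbp1 3.86-fold and Fbp2 1.74-fold. The groups of Fbp1 overlapped, with knockout replicate 3 at 6.48 CPM and wild-type replicate 2 at 7.09. Per length Fbp2 was the more abundant, with means of 118 FPKM in wild type and 166 in the knockout against 4.12 and 12.8 for Fbp1. Without knockout replicate 1 or 2 the Fbp2 call was lost (edgeR adjusted p = 0.0660 and 0.0575; 0.00258 to 0.0660 over 15 settings). Slc37a4, which carries glucose-6-phosphate into the endoplasmic reticulum, rose 1.65-fold, a call lost in replicates 1 to 3 alone (edgeR adjusted p = 0.0799; 0.00184 to 0.0799 over 15 settings). The groups of Slc37a4 overlapped, with knockout replicate 3 at 40.5 CPM and wild-type replicate 2 at 42.5. Pck2 was not called. The summed level of the 8 genes was lowest among knockout libraries in replicate 3 (342 CPM, the other 3 at 1214 to 1574), which was also the knockout library with the lowest enterocyte sum.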

How the data were processed

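RNA of small intestinal crypts was profiled in 4 wild-type and 4 miR-29ab1-/- libraries, and each column was matched to its sample by the short name that label and column share. Per the file headers, the authors deposited estimated counts, as reads per gene, of which 8.04 to 9.18 percent per library were not exactly whole, and these were rounded. A second set of deposited columns, without a unit in the file headers, was taken as FPKM. Divided by the count, it varied roughly as 1 over the library's total. Single genes departed from this. Slc16a7 was at 0.30 for 15 counts in wild-type replicate 1 and 0.16 for 18 counts in wild-type replicate 3. The totals of these libraries were 13502126 and 14077666. Shares and ratios per length carry that variation. The submitters' processing notes list HISAT2 and DESeq2 only by name. The sources used here do not give the counting program, its use of strand, the build or the annotation. Aldoa, Pkm, Ldha and Gapdh have processed copies in the genome, and how reads shared with these were counted is likewise not given.

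All genes were fitted with edgeR 4.0.16 (R 4.3.3) by its quasi-likelihood functions glmQLFit and glmQLFTest on genotype alone, after filterByExpr and with TMM factors, and adjusted by Benjamini-Hochberg with a threshold of 0.05. The script was tested on simulated counts. A fold change sets knockout over wild type, CPM includes the TMM factors, and the SE is the log2 fold change divided by the square root of F. Alternatives were DESeq2 1.42.0, upper-quartile factors, total-count scaling, no filter, a mean of at least 50 counts, a replicate block, replicates 1 to 3 alone and leaving out each library, 15 in all. Total-count scaling put the median log2 fold change of all tested genes at −0.23, from 0.034, and gave 2089 higher and 4011 lower genes in place of 3129 and 2976. Under it the 10 genes had 2 higher and 3 lower calls.

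Ratios were log2 of (count + 0.5) over (count + 0.5) per library. They share genes with each other and with the fold changes, so they are not separate evidence of those calls. Deviations from the group means of same-numbered libraries correlated at 0.31 to 0.52 and of differently numbered ones at −0.48 to 0.45, ranges that overlap. The main fit and the permutation test of the ratios left the libraries unpaired. Same-numbered libraries were taken as pairs only in the replicate block, the paired test of the ratios and the counts of pairs. No label explains the numbers. No 2 libraries of a group agreed within sampling noise (the closest pair differed by 3.13 times the sampling variance). Nothing says that the samples came from separate litters or runs, so a p-value measures only their spread, which may be technical. The genes, lists and ratios were chosen with earlier results of these data known. The text names the 10 genes, their partners in the ratios, the called genes of the other 2 lists and up to 5 uncalled ones whose level was needed; Bsg, Pck2, Hk3 and Slc2a3 go beyond that rule and were added after their values were seen. Some further genes of the pathway, and 1 ratio of the 10 first planned, are not reported here and enter no count of lists, shares or ratios.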

Additional observations from a re-analysis of the deposited data

Results flagged for a closer look

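Slc16a3 in knockout replicate 1, at 70.7 CPM, lay far from the other 3 knockout libraries (25.2 to 31.0 CPM). It was the only one of 38 groups of 4 values examined, 10 genes and 9 ratios in each genotype, in which 1 library was separated by more than Dixon's critical value (gap over range 0.871). Chance gives such a separation in about 1 of 20 groups.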

How the results depend on the processing

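Of the 10 genes, Pfkl, Pfkp, Pfkfb3, Aldoa and Pfkm kept their direction and their side of the threshold in all 15 alternative settings. Hk1 turned to −0.13 with total-count scaling and ran from −0.18 (without knockout replicate 3) to 0.23 when single libraries were left out; Ldha turned to −0.14 and ran from −0.040 (without knockout replicate 1) to 0.25; neither was called in any setting. With the replicate block 4 of the 10 genes were called lower in place of 2, Hk2 and Pkm being added, and Hk3 was called lower as well; the block changed no other call among the named genes. Leaving out single libraries gave 2 to 3 higher and 2 to 3 lower calls among the 10. In replicates 1 to 3 alone, with fewer samples, 4 of the other glycolysis genes were called higher in place of 7. There 0 gluconeogenesis genes were called lower by edgeR (1 at an unadjusted p below 0.05; DESeq2 called 1 in all 8 libraries), against 1 in the main result, 2 with total-count scaling and 1 to 2 when single libraries were left out. Isoenzyme ratios kept their side of the threshold in all 9 cases with a prior count of 2 and on the FPKM scale. They moved by less than 1 SD in replicates 1 to 3 alone and when single libraries were left out, where no test was made, and as the mean of paired differences (replicate block). In that paired form the two-sided exact sign-flip test gave p = 0.125 for the 6 called ratios, the smallest that 4 pairs allow, so none of the 6 could pass; it gave 0.25 for Pfkm to Pfkl and Ldhb to Ldha and 0.875 for Pfkfb3 to Pfkfb4. Among the 10 genes Pfkm had the fewest counts, 52 to 157 per library. The cause of the changes under single settings was not tested.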
